A study of Mus musculus with 10 samples.

Results

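The genes described here are the mouse translation initiation and elongation factors, defined as every gene whose symbol starts with Eif and a digit from 1 to 6, or with Eef and 1 or 2, together with Pabpc1. The name rule found 88 of the 21934 gene symbols in the tables. It used gene names only and no measured value. Of the 88 members, 61 passed a minimum mean of 5 TPM, a length-corrected share of a library's transcripts, in both footprints and input RNA, and they were the same 61 in both tables. The other 27 are 16 numbered Eif1ad genes, Eef1ece2, Eif4e1b, Eif4a3l1, Eif4a3l2, Eif2s3y, Eif4ebp3, Eef1a2, Eef1akmt3, Eif3j2, Eif2ak4 and Eif4g3. In input RNA 24 of all members stayed under 1 TPM throughout, and 8 were listed at 0 in all 10 libraries.

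Initiation factors bring the initiator methionyl-tRNA and the small ribosomal subunit to the capped end of an mRNA and let it find the start codon. eIF2 carries the tRNA with GTP, eIF2B recharges eIF2, eIF3 is the large scaffold on the small subunit, and eIF4F (the cap-binding eIF4E, the scaffold eIF4G and the helicase eIF4A) opens the mRNA with help from eIF4B, eIF4H and the poly(A)-binding protein Pabpc1. In elongation, eEF1A delivers aminoacyl-tRNA, eEF1B recharges eEF1A and eEF2 moves the ribosome along. Many of these mRNAs begin with a terminal oligopyrimidine (TOP) tract, which couples their own translation to growth signalling through mTOR.

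The libraries are labelled as mouse macrophages in which Wdr4 was targeted, although their macrophage markers, given below, go against that cell type. Wdr4 is the partner of Mettl1 in the enzyme that places 7-methylguanosine on tRNA. In iBMDM, which are immortalized bone marrow-derived macrophages, monoclonal lines infected with a lentivirus carrying guide 1 (sgWdr4-1) or guide 2 (sgWdr4-2) and selected in puromycin were set against a WT line. In TAMs, tumour-associated macrophages sorted by F4/80 from orthotopic Hepa1-6 liver tumours, Wdr4 cKO mice, which lack Wdr4 in the myeloid lineage, were set against Wdr4 ff mice with the floxed alleles. Each of these 5 conditions had 1 input library of polyA RNA and 1 library of RNase I footprints, so the series holds 10 libraries in 2 separately normalised tables. Whether a library came from 1 or several cultures or mice is not given in the labels, and each targeted line is a single clone.

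Several properties of the libraries bear on every value that follows. Wdr4 footprints were 24.3 and 26.9 TPM in the libraries labelled sgWdr4-1 and sgWdr4-2, against 13.3 TPM in that labelled WT, and 17.7 TPM in that labelled cKO, against 8.51 TPM in that labelled ff. Wdr4 input was 31.3 and 44.5 TPM in the libraries labelled sgWdr4, against 44.6 TPM in WT, and 20.9 TPM in cKO, against 39.8 TPM in ff. The footprints thus went against the labels in both tables, and the condition and cell names below are those of the labels. Adgre1, the gene of F4/80, was listed at 0 in all 10 libraries. Among 20 macrophage markers 17 never reached 1 TPM in input RNA, and the summed input of all 20 was 17.8 to 24.2 TPM. By contrast, 14 fibroblast and stellate cell markers summed to 4433 to 6326 TPM, highest in cKO. That list was split, as 7 of the 14 never reached 1 TPM in input RNA and 7 had at least 5 TPM in every input library. Genes encoded by mitochondrial DNA made up 0.781% of footprint TPM in sgWdr4-1 and 9.94 to 14.6% in the other 4 footprint libraries, so the sgWdr4-1 footprint library stands apart. In bulk samples fewer cells of a type and less RNA per cell cannot be told apart. Whether these differences take part in any result below was not tested.

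The members' share of input RNA was similar across the iBMDM lines and lower in cKO than in ff. They held 3.48 and 3.70% of input TPM in sgWdr4-1 and sgWdr4-2, against 3.65% in WT, and 3.17% in cKO, against 3.74% in ff. Eef1a1 was the most abundant member in input RNA, followed by Eef2, Eif5a, which helps ribosomes through difficult peptide bonds, Eif4a1 and Pabpc1. TPM is corrected for length, but the quantifier and annotation are not named, so the length used for each gene is unknown. Comparisons of these levels between genes are therefore approximate. In footprints the members held a smaller share, 3.06 and 2.40% in sgWdr4-1 and sgWdr4-2, against 1.77% in WT, and 2.01% in cKO, against 1.71% in ff.

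Eef1a1 had 8120, 3044 and 2357 TPM of footprints in sgWdr4-1, sgWdr4-2 and WT, where its input was 10473, 11239 and 11112 TPM. In cKO and ff its footprints were 2126 and 2185 TPM and its input 9554 and 11667 TPM. The sgWdr4-1 footprints stood far above those of the other 4 libraries, which lay close together. Eef2 had 2063, 840 and 657 TPM of footprints in sgWdr4-1, sgWdr4-2 and WT, against 4058, 4087 and 4002 TPM of input. Eef2 footprints were 481 TPM in cKO and 605 TPM in ff, against 3417 and 3878 TPM of input. As for Eef1a1, footprints were below input in all 5 conditions. The footprint ratio of Eef1a1 to Eef2 stayed between 3.59 and 4.42 and the input ratio between 2.58 and 3.01, whereas that of Eef1a1 to its exchange factor subunit Eef1b2 was 0.498 to 3.08 in footprints and 10.3 to 11.2 in input.

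**Figure D1:**
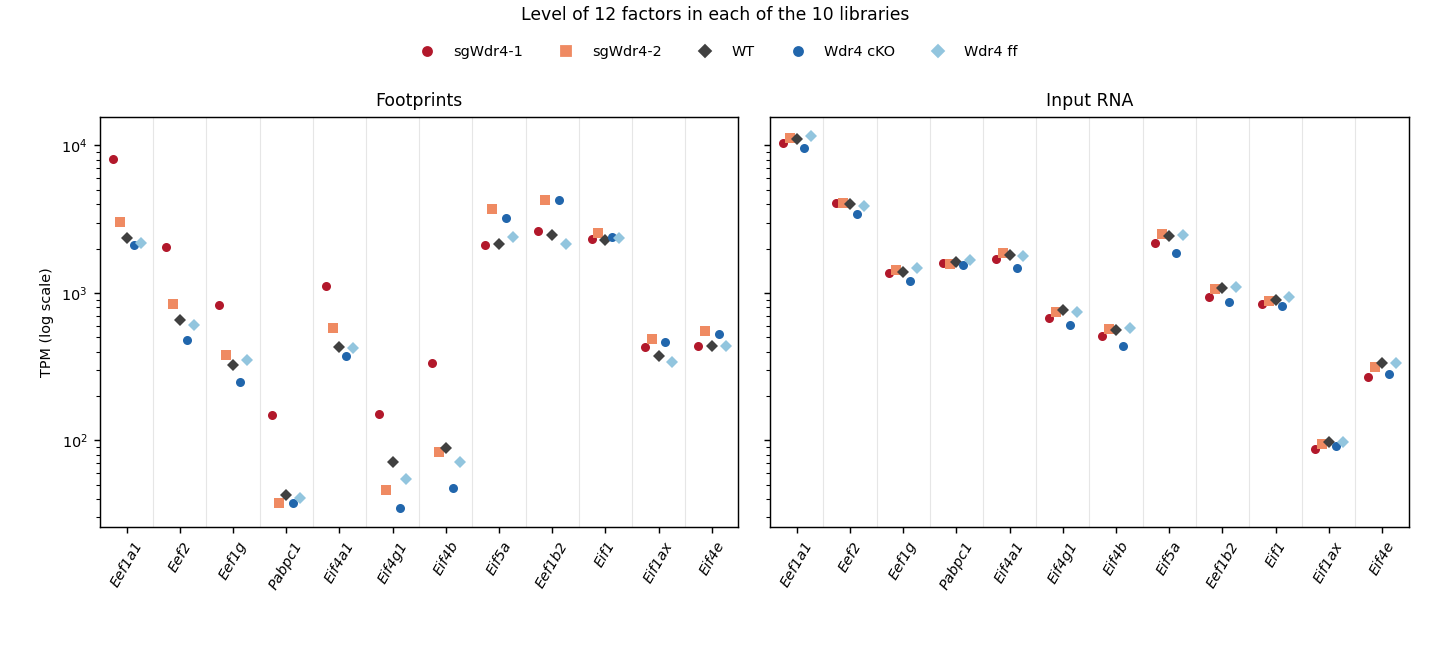
TPM of 12 factors on a log axis, in footprints (left panel) and input RNA (right panel), with 1 point per library: sgWdr4-1, sgWdr4-2 and WT are iBMDM lines, Wdr4 cKO and Wdr4 ff are labelled TAMs. Input points of a gene lie close together, while footprints of Eef1a1, Eef2, Pabpc1, Eif4g1 and Eif4b are highest in sgWdr4-1, and Eef1b2, Eif1 and Eif1ax lie higher in footprints than in input.

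Translation efficiency (TE) was taken as log2(footprint TPM + 1) minus log2(input TPM + 1) in each condition. Both sides are shares of a library, so a TE of 0 means that a gene held an equal share of footprints and input, and a fold on this scale understates the change of low genes. Of the 61 members, 29 had a TE below 0 in all 5 conditions, 11 above 0 in all 5, and 21 took both signs. These counts over the 5 conditions are not given for all genes. In WT alone, 43 of the 61 members and 5193 of the 7536 genes tested lay below 0. In ff alone, 45 of the 61 members and 4799 of the 7101 genes tested did. The members' median TE was −0.08 in sgWdr4-1 and −0.79 in sgWdr4-2, against −1.03 in WT, and −0.81 in cKO, against −0.86 in ff. Over all genes tested the medians were −0.43 in sgWdr4-1 and −0.63 in sgWdr4-2, against −0.58 in WT, and −0.85 in cKO, against −0.59 in ff.

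Footprints were compared with input by limma across the conditions of a table, with each condition as a block and p-values adjusted by Benjamini-Hochberg over all genes. Conditions serve as the replicates here, so the test asks whether the 2 kinds of library differ more than the conditions do. It rests on 2 residual degrees of freedom in iBMDM and 1 in TAMs. Its SE and p-values therefore lean on the spread that limma shares across genes, and a smaller p-value in TAMs is not stronger replication. In iBMDM 7 members had more footprints than input (11.5% of the 61, against 10.5% of all genes) and 28 had fewer (45.9%, against 42.4% of all genes). In TAMs 7 members had more (11.5%, against 11.8% of all genes) and 32 fewer (52.5%, against 44.5% of all genes). These shares are near those of all genes. All 28 members lower in iBMDM were also lower in TAMs, and 6 were higher in both. The 2 tests rest on separate libraries. The same overlap over all genes is not given here, so nothing particular to these factors was read from it. The median difference over all genes was −0.56 in iBMDM and −0.73 in TAMs, so most genes lay below 0. When every library was rescaled to the same median, 18 members were higher (29.5%, against 25.6% of all genes) and 12 lower (19.7%, against 16.4%) in iBMDM, and 20 were higher (32.8%, against 29% of all genes) and 17 lower (27.9%, against 18.9%) in TAMs. The 12 and 17 were all among the members lower without rescaling, and no member that passed in one direction passed in the other after rescaling.

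**Figure D2:**
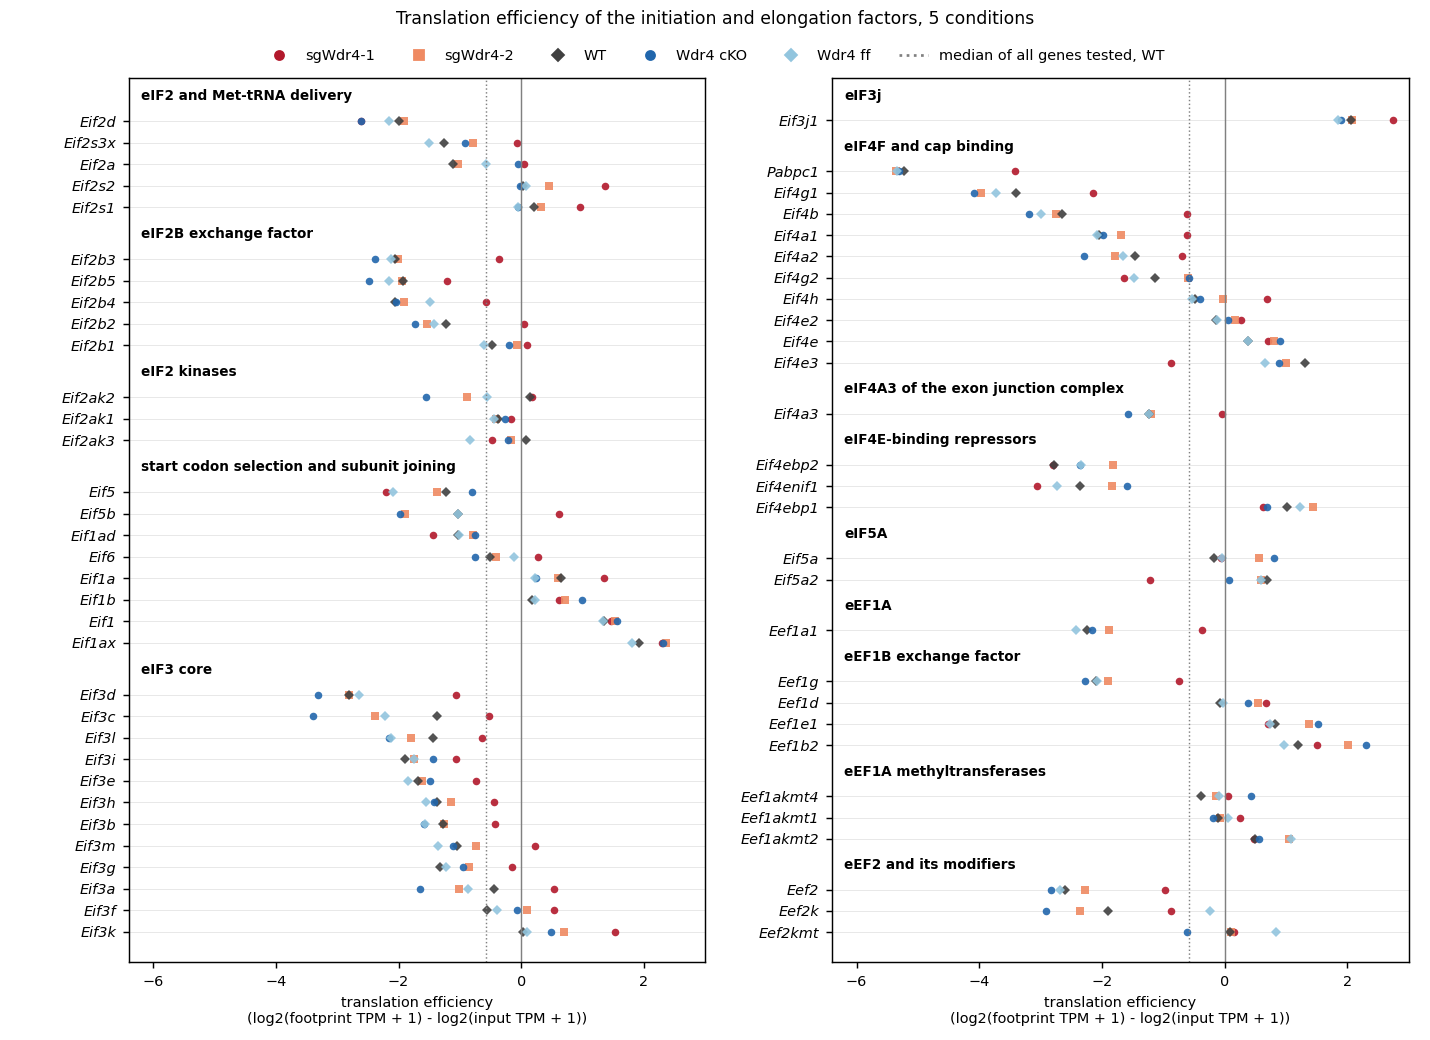
Translation efficiency of the 61 members that passed the filter, on a log2 scale, with 1 row per gene grouped by complex and 1 point per condition; the dotted line is the median of all genes tested in WT. Pabpc1 lies farthest to the left and Eif3j1, Eif1ax, Eif1 and Eef1b2 to the right of 0 in every condition. The sgWdr4-1 point lies to the right of the others in 40 of the 61 genes, a count not given for all genes.

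By complex, the members lower in footprints in iBMDM and TAMs were 8 and 10 of the 12 eIF3 core subunits, 6 and 6 of the 10 of eIF4F and cap binding, 4 and 4 of the 5 of eIF2B, and 2 and 2 of the 3 eIF4E-binding repressors, beside the 42.4% and 44.5% of all genes. After rescaling to the same median the lower ones were 2 and 3 of the eIF3 core, 3 and 5 of eIF4F and cap binding, 1 and 3 of eIF2B, and 2 and 2 of the repressors, beside 16.4% and 18.9% of all genes. With so few members in each, nothing particular to a complex was read from these counts. The higher ones included 3 and 2 of the 8 factors of start codon selection and subunit joining. They also included 2 and 2 of the 4 grouped with eEF1B (Eef1b2, and Eef1e1, an auxiliary protein of the tRNA synthetase complex), Eif3j1 and Eif4ebp1. Over all genes 10.5% and 11.8% were higher. In the start codon group 2 and 3 of the 8 were lower, and in the eEF1B group 1 and 1 of the 4. After rescaling, 4 and 4 of the start codon group were higher and 1 and 0 lower. Nothing particular to a complex was read from these counts either. Eef1akmt2 passed in TAMs, at 0.82 ± 0.35 (SE), and missed the threshold in iBMDM, at 0.68 ± 0.31, but passed in both tables after rescaling. None of the 3 eIF2 kinases tested passed in either table, with or without rescaling. Neither eIF5A gene passed in either table without rescaling, and after it both were higher in footprints in TAMs, Eif5a by 1.31 and its paralog Eif5a2 by 1.23.

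Pabpc1 and Eif4g1 had the lowest differences between footprints and input among the members in both tables. Pabpc1 had 148 and 37.6 TPM of footprints in sgWdr4-1 and sgWdr4-2, against 42.5 TPM in WT, and 37.7 TPM in cKO, against 40.6 TPM in ff, while its input was 1539 to 1684 TPM. Its footprints were therefore far below its input in all 5 conditions, with a difference of −4.67 ± 0.34 (SE, adjusted p = 5.8e-09) in iBMDM and −5.33 ± 0.31 (adjusted p = 2.07e-13) in TAMs. Of the 7536 genes tested in iBMDM only 12 had a lower difference, and 9 of 7101 in TAMs. The scaffold Eif4g1 had 151, 46.1 and 71.5 TPM of footprints in sgWdr4-1, sgWdr4-2 and WT, against 674, 740 and 762 TPM of input. Its footprints were 34.8 TPM in cKO and 55.1 TPM in ff, against 605 and 742 TPM of input. Its footprints were lower than its input by limma in both tables, with differences of −3.17 ± 0.33 in iBMDM and −3.90 ± 0.31 in TAMs (SE). The helicase stimulator Eif4b had 334, 83.8 and 89.0 TPM of footprints in sgWdr4-1, sgWdr4-2 and WT and 47.4 and 71.8 TPM in cKO and ff, against 438 to 578 TPM of input. The helicase Eif4a1 had 1122, 580 and 433 TPM of footprints in sgWdr4-1, sgWdr4-2 and WT and 375 and 421 TPM in cKO and ff, against 1485 to 1874 TPM of input. Both had fewer footprints than input in all 5 conditions, with sgWdr4-1 highest. The differences were −2.01 ± 0.36 and −3.09 ± 0.31 for Eif4b and −1.45 ± 0.34 and −2.03 ± 0.34 for Eif4a1 in iBMDM and TAMs. After rescaling to the same median Eif4a1 missed the threshold in iBMDM and passed it in TAMs.

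Eif4e, which binds the cap itself, did not share this pattern. It had 438, 552 and 435 TPM of footprints in sgWdr4-1, sgWdr4-2 and WT and 529 and 436 TPM in cKO and ff, against 269 to 335 TPM of input. Its TE lay between 0.38 and 0.91 and missed the threshold in both tables, with adjusted p of 0.0721 in iBMDM and 0.0907 in TAMs by limma. After rescaling to the same median it was higher in footprints in both, by 1.37 (adjusted p = 0.00176) and 1.58 (adjusted p = 0.00217). Its repressors were split. Eif4ebp1, which holds eIF4E when mTOR is off, had 184 to 246 TPM of footprints and 86.1 to 137 TPM of input and was higher in footprints in both tables, by 1.03 ± 0.29 in iBMDM and 0.96 ± 0.32 in TAMs (SE). Eif4ebp2, its paralog, had 18.2, 33.6 and 16.6 TPM of footprints in sgWdr4-1, sgWdr4-2 and WT and 23.8 and 22.6 TPM in cKO and ff, against 132, 121 and 120 TPM and 127 and 118 TPM of input. It was lower, by −2.47 ± 0.31 in iBMDM and −2.35 ± 0.33 in TAMs (SE). The eIF4E transporter Eif4enif1 was also lower, at −2.42 ± 0.33 and −2.16 ± 0.38.

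Eif1 and Eif1ax, which encode small factors that sit at the start codon, lay at the other end. Eif1, which guards the choice of start codon, had 2320, 2552 and 2303 TPM of footprints in sgWdr4-1, sgWdr4-2 and WT, against 843, 880 and 900 TPM of input. The TAM libraries of cKO and ff gave 2406 and 2353 TPM of footprints, against 811 and 936 TPM of input. The 5 footprint values of Eif1 were all above the 5 input values, and its TE ranged from 1.33 to 1.57. Eif1ax, one of the eIF1A genes, had 432, 490 and 374 TPM of footprints in sgWdr4-1, sgWdr4-2 and WT and 461 and 342 TPM in cKO and ff, against 87.5 to 97.7 TPM of input. Its difference was 2.19 ± 0.28 (SE, adjusted p = 5.04e-06, limma) in iBMDM and 2.06 ± 0.32 (adjusted p = 4.94e-06) in TAMs. Eif5, the GTPase activator of eIF2, ran the other way, at −1.60 ± 0.29 and −1.45 ± 0.33, and missed the threshold in TAMs after rescaling to the same median. Without sgWdr4-2 the iBMDM difference of Eif1 was 1.41 and missed the threshold. The related Eif1a was higher in footprints in iBMDM, at 0.87 ± 0.29 (SE), but missed the threshold in TAMs, at 0.23 ± 0.31. Eif1b missed it in iBMDM and in TAMs, at 0.51 and 0.61. After rescaling to the same median Eif1a and Eif1b were higher in both tables. Eif1a and Eif1ax, and Eif1 and Eif1b, encode close to the same protein, and footprints are short, so how reads were divided between such copies is uncertain; the same holds for Eef1a1, Eif4a1 and Eif4a2, Eif2s3x and Eif2s3y, and Pabpc1.

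The copies of eIF3j, the loosely bound eIF3 subunit, were counted unequally in footprints. Eif3j1 had 217, 185 and 177 TPM of footprints in sgWdr4-1, sgWdr4-2 and WT, against 31.4, 43.2 and 41.5 TPM of input. Its footprints were 132 TPM in cKO and 175 TPM in ff, against 34.6 and 47.7 TPM of input. Taken alone, Eif3j1 had the highest difference among the members in iBMDM, 2.30 ± 0.29 (SE, limma), and 1.88 ± 0.32 in TAMs. Its copy Eif3j2 was listed at 0 footprints in every library, with 61.0, 63.8 and 68.9 TPM of input in sgWdr4-1, sgWdr4-2 and WT and 59.8 and 60.7 TPM in cKO and ff. With the copies summed, TE was 1.22 and 0.79 in sgWdr4-1 and sgWdr4-2, against 0.68 in WT, and 0.48 in cKO, against 0.68 in ff. Eif3j1 alone had a TE of 1.85 to 2.75.

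Elongation factors divided within a single complex. Eef1b2, the catalytic subunit of eEF1B, had 2635, 4298 and 2472 TPM of footprints in sgWdr4-1, sgWdr4-2 and WT, against 931, 1064 and 1077 TPM of input. The TAM libraries of cKO and ff held 4267 and 2151 TPM of Eef1b2 footprints, against 864 and 1101 TPM of input. Its scaffold partner Eef1g had 824, 382 and 325 TPM of footprints in sgWdr4-1, sgWdr4-2 and WT, against 1374, 1436 and 1397 TPM of input. Eef1g footprints were 247 TPM in cKO and 348 TPM in ff, against 1203 and 1480 TPM of input. Eef1b2 was thus above its input and Eef1g below it in every condition. The differences were 1.57 ± 0.34 in iBMDM and 1.63 ± 0.39 in TAMs for Eef1b2, and −1.58 ± 0.33 and −2.18 ± 0.33 for Eef1g (SE, limma), while Eef1d, the other exchange subunit, missed the threshold at 0.38 ± 0.31 and 0.18 ± 0.34. After rescaling to the same median Eef1d was higher in footprints in both tables, by 1.12 (adjusted p = 0.0105, limma) and 1.11 (adjusted p = 0.0283). Eef1a1 stood at −1.50 ± 0.43 and −2.29 ± 0.42 and Eef2 at −1.95 ± 0.37 and −2.75 ± 0.36. After rescaling to the same median Eef1a1 and Eef1g missed the threshold in iBMDM and passed it in TAMs, and Eef2 passed in both. Without sgWdr4-2 the iBMDM differences of Eef1b2, Eef1a1 and the helicase Eif4a1 were 1.35, −1.30 and −1.33 and missed the threshold.

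The subunits of eIF2B and eEF1B spread more in footprints than in input, which was less regular for eIF2 and the eIF3 core. The SD of log2(TPM + 1) across the 3 eEF1B subunits was 0.847 to 2.06 in footprints and 0.361 to 0.422 in input, wider in footprints in 5 of 5 conditions. In cKO the highest eEF1B subunit had 17.3 times the footprint TPM of the lowest, against 6.18 times in ff, with input ratios of 1.79 in cKO and 1.71 in ff. Across the 5 eIF2B subunits the SD was 0.72 to 1.16 in footprints and 0.45 to 0.668 in input, also wider in 5 of 5 conditions, though leaving out 1 subunit could bring this to 2 of 5. Eif2b1 was the highest and Eif2b4 the lowest eIF2B subunit in every footprint library. For the 12 subunits of the eIF3 core the footprint SD was wider in 3 of 5 conditions and for the 3 of eIF2 in 2 of 5, and these counts ran from 1 to 5 and from 0 to 5 when a subunit was left out. Subunits of a complex are not replicates, so no test was made.

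**Figure D3:**
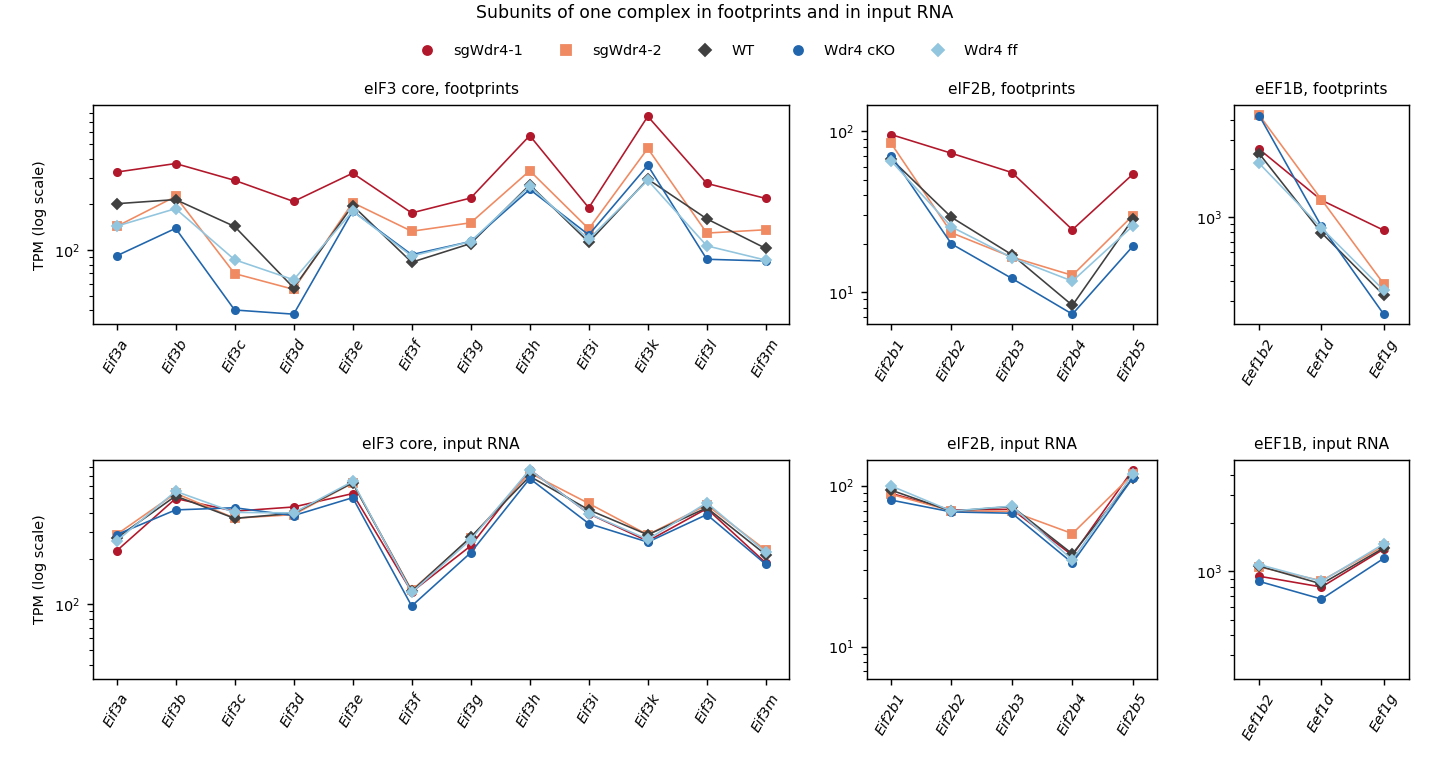
TPM on a log axis of the subunits of the eIF3 core, eIF2B and eEF1B in footprints (upper row) and input RNA (lower row), with 1 line per condition joining subunits for reading only. The 5 input lines nearly coincide, while in footprints Eif3d is the lowest eIF3 core subunit in all conditions but sgWdr4-1, and Eef1b2 and Eef1g lie apart by 3.20 to 17.3 times.

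Within the eIF3 core, 8 and 10 of the 12 subunits had fewer footprints than input in iBMDM and TAMs, but after rescaling to the same median only Eif3d and Eif3i did in iBMDM and Eif3c, Eif3d and Eif3l in TAMs. Eif3h, the most abundant core subunit in input, had 568, 333 and 269 TPM of footprints in sgWdr4-1, sgWdr4-2 and WT, against 773, 736 and 699 TPM of input. Eif3h footprints were 251 TPM in cKO and 263 TPM in ff, against 676 and 772 TPM of input. Eif3d, a subunit that in human cells can itself bind the cap, had the lowest difference of the core, −2.23 ± 0.33 in iBMDM and −2.98 ± 0.32 in TAMs (SE, limma). Eif3k had a TE above 0 in all 5 conditions, with 288 to 760 TPM of footprints and 258 to 288 TPM of input, but missed the threshold, at 0.75 ± 0.32 and 0.29 ± 0.32. After rescaling it was higher in both tables, by 1.49 (adjusted p = 0.0022, limma) and 1.23 (adjusted p = 0.00866). In eIF2, the subunit Eif2s3x that holds the GTP and the tRNA had 256, 167 and 122 TPM of footprints in sgWdr4-1, sgWdr4-2 and WT, against 270, 290 and 295 TPM of input. In cKO and ff Eif2s3x had 126 and 103 TPM of footprints, against 239 and 292 TPM of input. It was lower in footprints in TAMs, by −1.21 ± 0.32, but not after rescaling to the same median (−0.28), and missed the threshold in iBMDM, at −0.71 ± 0.30, though not without sgWdr4-1 (−1.03). In eIF2B, the catalytic subunit Eif2b5 had 54.0, 29.9 and 28.4 TPM of footprints in sgWdr4-1, sgWdr4-2 and WT and 19.3 and 25.7 TPM in cKO and ff, against 111 to 126 TPM of input.

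For some other complexes the most abundant member in input is given here. Eif2ak1, the heme-regulated eIF2 kinase, had 25.3, 20.3 and 20.5 TPM of footprints in sgWdr4-1, sgWdr4-2 and WT and 20.3 and 22.6 TPM in cKO and ff, against 28.4, 27.3 and 26.9 TPM and 24.5 and 31.2 TPM of input, with a TE between −0.45 and −0.17. Eef1akmt1, a methyltransferase of eEF1A, had 65.7, 53.3 and 45.6 TPM of footprints in sgWdr4-1, sgWdr4-2 and WT and 42.8 and 50.2 TPM in cKO and ff, against 54.8, 56.4 and 49.3 TPM and 49.1 and 48.3 TPM of input, with a TE between −0.20 and 0.26. Both missed the threshold in each table, but after rescaling to the same median Eef1akmt1 was higher in footprints in both, by 0.75 and 0.85, while Eif2ak1 still missed it. Eif4a3, the helicase of the exon junction complex, had 211, 95.3 and 89.2 TPM of footprints in sgWdr4-1, sgWdr4-2 and WT and 66.8 and 85.7 TPM in cKO and ff, against 200 to 219 TPM of input. Its footprints were lower than its input in both tables by limma, but not after rescaling. The iBMDM lines were uneven, with a TE of −0.04 in sgWdr4-1, against −1.19 in sgWdr4-2 and −1.23 in WT. Eif5a had 2101, 3730 and 2153 TPM of footprints in sgWdr4-1, sgWdr4-2 and WT and 3245 and 2377 TPM in cKO and ff, against 1861 to 2528 TPM of input.

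The members known as TOP mRNAs were 10, namely Eef1a1, Eef1b2, Eef1d, Eef1g, Eef2, Eif3e, Eif3f, Eif3h, Eif4b and Pabpc1. Their median TE was −0.53 in sgWdr4-1 and −1.75 in sgWdr4-2, against −1.89 in WT, and −1.82 in cKO, against −1.96 in ff. The other 51 tested members had medians of −0.04 in sgWdr4-1 and −0.74 in sgWdr4-2, against −0.51 in WT, and −0.75 in cKO, against −0.60 in ff. The TOP mRNAs lay lower in each condition, but Eef1b2, Eef1d and Eif3f lay apart from the rest: Eef1b2 was above 0 in all 5 conditions, Eef1d between −0.07 and 0.67 and Eif3f between −0.55 and 0.53. The sequence around the annotated transcription start, from the RefSeq table on GRCm38.p6, is shown for the 5 TOP members that the table gives, since their TE differs, and for Eif2s3x as a member outside the list. Each runs 5′ to 3′ on the gene's strand from 15 bases before the start, 40 bases in all, with the longest unbroken run of C and T near the start in capitals. In Eif4b and Eef1b2 another run of the same length lies farther downstream and is not in capitals.
Eef1a1, chr9:78481700-78481739, minus strand: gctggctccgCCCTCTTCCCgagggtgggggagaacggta
Eef2, chr10:81176616-81176655, plus strand: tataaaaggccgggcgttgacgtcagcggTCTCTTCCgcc
Eif3f, chr7:108934400-108934439, plus strand: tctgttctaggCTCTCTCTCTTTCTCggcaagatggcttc
Eif4b, chr15:102073758-102073797, plus strand: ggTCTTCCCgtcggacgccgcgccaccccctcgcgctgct
Eef1b2, chr1:63176816-63176855, plus strand: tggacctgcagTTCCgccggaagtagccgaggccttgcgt
Eif2s3x, chrX:94212627-94212666, minus strand: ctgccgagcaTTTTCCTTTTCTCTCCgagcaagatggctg

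The longest runs were 10 bases in Eef1a1, 8 in Eef2, 15 in Eif3f, 7 in Eif4b, 4 in Eef1b2 and 16 in Eif2s3x. A run of at least 8 bases of C or T, read on the gene's strand and overlapping the 25 bases either side of the start, was found in 14 of the 53 members with a start region (26.4%) and in 24.0% of all 27025 genes in the table, each at its first-listed start. It was found in 3 of the 5 TOP members present. The 12 tested members with such a run had a median TE of −1.23 over the conditions and the 36 without had −0.48, each gene counted at its own median. A match describes these letters at an annotated start only, and the start used in these cells was not measured.

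Across the Wdr4 conditions no tested factor changed 2-fold in its share of input RNA. None did so under both guides (0.0133% of all genes higher and 0.0265% lower) or in cKO against ff (1.42% higher and 0.169% lower). The largest change in input of any tested member was 0.49 on the log2 scale in sgWdr4-1, 0.41 in sgWdr4-2 and 0.72 in cKO. By limma over the 3 iBMDM lines, 0 members differed between sgWdr4 and WT in input (0% of all genes), in footprints (0.0133% of all genes) or in TE (0.0663% of all genes), and 0 members had an unadjusted p under 0.05 in any of the 3. That test rests on 1 residual degree of freedom, with the spread of the guide lines standing in for that of the single WT line, so a missed threshold does not show that these genes were equal.

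Many elongation and initiation factors had a higher TE, a ratio of shares, in sgWdr4-1 than in WT, and none was 2-fold higher in sgWdr4-2. No member passed 2-fold under both guides in TE (0.902% of all genes higher and 2.04% lower) or in footprints (0.743% higher and 1.43% lower). In sgWdr4-1 alone, 22 of the 61 members were at least 2-fold higher in TE than in WT (36.1%, against 14.8% of all genes) and 2 lower, the cap-binding paralog Eif4e3 and the Eif5a paralog Eif5a2 (3.28%, against 13.7% of all genes). Footprints gave 22 higher in sgWdr4-1 (against 16.1% of all genes) and 3 lower (against 10.3%). In sgWdr4-2 alone, 0 members were higher in TE (against 3.53% of all genes) and 2 lower, the RNA-activated eIF2 kinase Eif2ak2 and Eif3c (3.28%, against 4.87%). Footprints gave 0 higher (against 3.03%) and 1 lower, Eif3c (against 4.63%). The comparisons share the WT library, there is no replicate of either guide, and the sgWdr4-1 footprint library is the one with the low mitochondrial share.

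In sgWdr4-1 the higher members included 5 of the 12 eIF3 core subunits and 5 of the 10 members of eIF4F and cap binding. They also included 3 of 5 of eIF2 and tRNA delivery and 3 of 5 of eIF2B, beside 14.8% of all genes. The rest were Eef1a1, Eef1g, Eef2, Eef2k, Eif4a3 and Eif5b. With so few members per complex and 1 library, nothing particular to a complex was read from these counts. The TE of Eif4b was 2.04 higher than in WT, that of Eef1a1 1.87, Pabpc1 1.81, Eif3d 1.74, Eif2b3 1.70, Eif5b, the subunit-joining GTPase, 1.64, and Eef2 1.63, all on the log2 scale. In sgWdr4-2 the same genes changed by −0.10, 0.35, −0.12, −0.00, 0.05, −0.86 and 0.33. By complex, the median TE change in sgWdr4-1 was 1.27 for eIF2B, 0.98 for eIF4F and cap binding, 0.95 for the eIF3 core and −0.39 for the eIF4E-binding repressors. The same medians in sgWdr4-2 were 0.05 for eIF2B, 0.10 for eIF4F, 0.11 for the eIF3 core and 0.52 for the repressors. The median change over the 61 members was 0.78 in sgWdr4-1, against 0.01 over all genes, and 0.15 in sgWdr4-2, against −0.05 over all genes. The TOP members had medians of 1.23 in sgWdr4-1 and 0.28 in sgWdr4-2, and the other members 0.71 and 0.10.

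**Figure D4:**
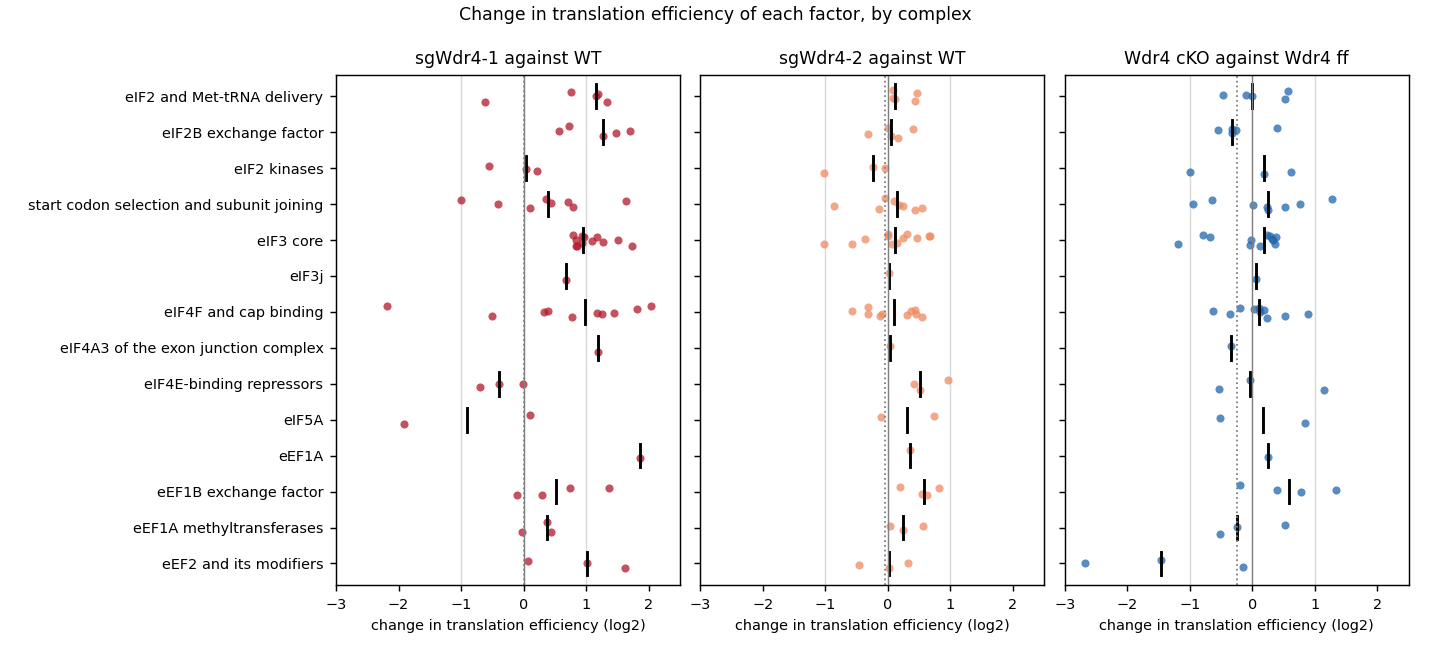
Change in translation efficiency of each tested member on a log2 scale, by complex, in sgWdr4-1 and sgWdr4-2 against WT and in Wdr4 cKO against Wdr4 ff; 1 point per gene, a black bar at the median of each complex, a dotted line at the median of all genes and grey lines at 2-fold. In sgWdr4-1 most complexes lie to the right, in sgWdr4-2 near 0, and in cKO the far left points are Eef2k and Eef2kmt.

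In cKO against ff, the catalytic eEF1B subunit and the activator Eif5 were among the higher members and the eEF2 kinase was the lowest. At 2-fold in TE 3 members were higher (4.92%, against 4.03% of all genes) and 3 lower (4.92%, against 16% of all genes). Eef1b2 was 1.34 higher on the log2 scale, with 4267 TPM of footprints in cKO against 2151 TPM in ff, on input of 864 and 1101 TPM. Eif5 was 1.28 higher, with 166 TPM of footprints in cKO against 74.8 TPM in ff, on input of 291 and 321 TPM. Eif4enif1 was 1.14 higher, with 16.1 TPM of footprints in cKO against 6.64 TPM in ff, on input of 50.5 and 49.9 TPM. Footprints were higher in cKO for each of these genes, while input was close or lower. In the iBMDM lines Eef1b2 changed by 0.30 in sgWdr4-1 and 0.81 in sgWdr4-2, Eif5 by −0.99 and −0.15, and Eif4enif1 by −0.70 and 0.52. Eif5 had 55.8 and 122 TPM of footprints in sgWdr4-1 and sgWdr4-2, against 134 TPM in WT, and 262 and 316 TPM of input, against 312 TPM in WT. Eif4enif1 had 5.88 and 15.2 TPM of footprints in sgWdr4-1 and sgWdr4-2, against 10.9 TPM in WT, and 56.3 and 57.2 TPM of input, against 59.9 TPM in WT.

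Of the 3 lower members, Eef2k and Eef2kmt act on eEF2. Eef2k, the kinase that switches eEF2 off, had 3.30 TPM of footprints in cKO against 15.7 TPM in ff, while its input was 31.5 TPM in cKO against 18.8 TPM in ff. Its TE changed by −2.68, the largest change of any member in cKO, and both footprints and input moved. In iBMDM Eef2k had 13.1 and 2.96 TPM of footprints in sgWdr4-1 and sgWdr4-2, against 3.94 TPM in WT, and 24.8 and 19.2 TPM of input, against 17.4 TPM in WT. Eef2kmt, which methylates eEF2, had 5.53 TPM of footprints in cKO against 11.6 TPM in ff and 9.02 TPM of input in cKO against 5.99 TPM in ff, a change of −1.46. In iBMDM Eef2kmt had 11.2 and 8.67 TPM of footprints in sgWdr4-1 and sgWdr4-2, against 7.39 TPM in WT, and changed by 0.08 and 0.02. Eif3c had 40.2 TPM of footprints in cKO against 86.2 TPM in ff, on input of 434 and 404 TPM, a change of −1.18. Eif3c footprints were 288 and 69.8 TPM in sgWdr4-1 and sgWdr4-2, against 143 TPM in WT, on input of 412, 370 and 369 TPM. For Eif3c the lower value thus stood in cKO and in sgWdr4-2 and the higher one in sgWdr4-1.

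Footprints of cKO and ff gave 2 members higher, Eif4enif1 and Eif5 (against 2.73% of all genes), and 2 lower, Eef2k and Eif3c (against 8.15% of all genes). The median TE change in cKO was 0.05 for the members and −0.25 for all genes, so the comparison of cKO and ff was shifted as a whole. The members' median change was −0.07 in footprints and −0.13 in input, against −0.20 and 0.06 over all genes. Input was lower in cKO than in ff for 44 of the 61 members and for 2929 of the 7101 genes tested. With every library rescaled to the same median, 7 members were 2-fold higher (11.5%, against 8.46% of all genes) and 2 lower, Eef2k and Eef2kmt (3.28%, against 9.46%), and Eif3c no longer passed. There is 1 library per kind in cKO and in ff, so these differences have no replicate check.

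The wider pathway was read from 57 other genes of translation control, of which 49 were tested in iBMDM and 47 in TAMs. By limma, 0 of them differed between sgWdr4 and WT in TE. In sgWdr4-1 alone 14 of the 49 were 2-fold higher in TE (28.6%, against 14.8% of all genes) and 6 lower (12.2%, against 13.7%), and in sgWdr4-2 alone 3 were higher (6.12%, against 3.53%) and 1 lower (2.04%, against 4.87%). Under both guides 1 was 2-fold higher in TE (2.04%, against 0.902% of all genes) and 1 lower (2.04%, against 2.04%), counts near those of all genes. The higher one was Mknk1, a kinase of eIF4E, whose TE was 1.51 and 1.27 higher in sgWdr4-1 and sgWdr4-2 than in WT. Mknk1 had 12.3 and 11.15 TPM of footprints in sgWdr4-1 and sgWdr4-2, against 4.40 TPM in WT. Both changes thus rest on the same low WT value. The lower one was Ppp1r15a, the stress-induced subunit of the eIF2 phosphatase, whose mRNA carries upstream reading frames. Ppp1r15a had 22.2 and 12.4 TPM of footprints in sgWdr4-1 and sgWdr4-2, against 38.8 TPM in WT, and 80.2 and 49.8 TPM of input, against 49.0 TPM in WT. In cKO it had 8.99 TPM of footprints, against 32.8 TPM in ff, and 104 TPM of input, against 48.3 TPM in ff. Its TE changed by −1.48, −1.59 and −2.85 in sgWdr4-1, sgWdr4-2 and cKO, while the eIF2 kinases among the members had median changes of 0.04, −0.25 and 0.18.

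In cKO, 2 of the 47 were 2-fold higher in TE (4.26%, against 4.03% of all genes) and 5 lower (10.6%, against 16% of all genes), shares that do not set them apart from all genes. The higher ones were Dph7 (2.13) and Dph3 (1.12), and Dph5 was lower (−1.65); these genes make diphthamide, a modified residue of eEF2. Mtif2, the mitochondrial initiation factor, changed by −2.24 and Tsc2, an inhibitor of mTOR, by −1.10. Dph7 and Mtif2 rest on footprints of 10.2 TPM in cKO against 2.37 TPM in ff and 1.99 TPM in cKO against 10.04 TPM in ff. In the guides Dph3 went both ways, at −1.01 in sgWdr4-1 and 1.16 in sgWdr4-2, and Dph5 changed by 1.40 and −0.12.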

How the data were processed

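The deposited values are TPM per gene in 2 tables, 1 for iBMDM and 1 for TAMs, which the authors normalised separately. Per the submitters' processing notes fastp 0.18.0 and Bowtie2 were used; for the genome build, annotation and quantifier the sources used here name none. Per the labels' protocols, footprints were RNase I fragments depleted of rRNA and input was polyA RNA. TPM keeps no read depth, which is therefore unknown, so counting intervals and count tests were not possible.

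A gene entered the tests, on log2(TPM + 1), when its mean TPM reached 5 in footprints and in input. Footprints and input were paired by line or sort, which makes TE. limma 3.58.1 (R 4.3.3, trended) was used with Benjamini-Hochberg adjustment at 0.05, a 2-fold rule where a group had 1 library, and Python 3.11.15 for the rest. The limma step was run on simulated data with planted changes, equal noise for all genes and no library set apart. That setting is simpler than these libraries, so it does not show how the test behaves on them. sgWdr4-1 and sgWdr4-2 were treated as 2 samples of 1 group; p-values measure only the spread between these libraries.

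The members, complexes and other lists were chosen with earlier results of these data known. Values are given in every library, or for some inputs as ranges, for 25 members by rule, namely the most abundant of each complex, those past 2-fold under both guides or in cKO, those called between sgWdr4 and WT, and the 3 highest and 3 lowest called between footprints and input. Eif4e, Eif4ebp1, Eif3d, Eif3k, Eif3i, Eif3l, Eif3f, Eef1d, Eif2b1, Eif2b3, Eif2b4, Eif2ak2, Eif4e3, Eif5a2, Eif5b, Eif1a, Eif1b, Eif3a, Eif3e, Eef1e1 and Eef1akmt2 are mentioned besides, chosen after their values were seen. Of the 88 members, 71 matched the RefSeq gene table.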

Additional observations from a re-analysis of the deposited data

Results flagged for a closer look

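In 5 members the guide lines moved in opposite directions from WT by at least 0.5 on the log2 scale of TE; the difference between the guides was not tested. Eif4g1 changed by 1.25 in sgWdr4-1 and −0.58 in sgWdr4-2. Eif5b changed by 1.64 and −0.86, Eif3a by 0.97 and −0.57, and Eif3c by 0.85 and −1.02. Eif4enif1 ran the other way, at −0.70 in sgWdr4-1 and 0.52 in sgWdr4-2. In cKO against ff the same genes changed by −0.35, −0.94, −0.79, −1.18 and 1.14.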

How the results depend on the processing

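Counts of members called by limma moved most with the scaling and with which line was present. With every library rescaled to the same median, members with more footprints than input were 18 in iBMDM and 20 in TAMs, and those with fewer 12 and 17. Leaving out 1 iBMDM line gave 2 to 11 members higher (11 without sgWdr4-1, 2 without sgWdr4-2 and 5 without WT) and 18 to 33 lower (18 without sgWdr4-2). Without the replicate block that pairs footprints and input by line, 9 were higher and 26 lower in iBMDM, 8 and 31 in TAMs, and 0 differed in TE between sgWdr4 and WT. The 0 members 2-fold higher in TE under both guides became 22 in TE and 22 in footprints without sgWdr4-2. The 0 lower became 2 in TE without either guide, 1 in footprints without sgWdr4-1 and 3 without sgWdr4-2; with no filter they were 1 in each. In cKO the 3 members higher in TE became 7 after rescaling to the same median and 5 when TPM left out mitochondrially encoded, ribosomal protein and histone genes. The 3 lower became 5 with a pseudocount of 0.1, 1 with a minimum of 20 TPM and 6 with no filter. In cKO footprints the 2 higher became 1 with a pseudocount of 5 and 1 with a minimum of 20 TPM, and the 2 lower became 4, 1, 4, 1 and 1 with a pseudocount of 0.1, the minimum of 20 TPM, no filter and the 2 rescalings. The 2 lower in TE in sgWdr4-1 became 1 with the minimum of 20 TPM. The members' median TE change in cKO was −0.0119 with no filter. Leaving out 1 subunit moved the conditions with a wider footprint spread to 1 to 5 for the eIF3 core, 0 to 5 for eIF2 and as few as 2 for eIF2B, and the range of log2 values gave 1 for eIF2. Of the single genes named, none turned direction under these settings among those called. Among the members named by rule, 7 lost their iBMDM call between footprints and input without sgWdr4-2 and 2 without WT. Without sgWdr4-1, 1 gained it. The cause of each move was not tested. Summing Eif3j1 and Eif3j2, chosen after seeing the data, lowered the median TE to 0.68, against 2.07 for Eif3j1. Depth is unknown, so low footprints such as those of Eef2k limit what can be read from them.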

Other observations

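Pabpc4, a second cytoplasmic poly(A)-binding protein outside the name rule, was looked at after the values of Pabpc1 were seen. It had 1.90 and 0.52 TPM of footprints in sgWdr4-1 and sgWdr4-2, against 0.73 TPM in WT, and 0.087 TPM in cKO, against 0.20 TPM in ff. Its input was 289 and 297 TPM in sgWdr4-1 and sgWdr4-2, against 304 TPM in WT, and 260.4 TPM in cKO, against 292 TPM in ff. Pabpc4 did not pass the filter on footprints and was not tested.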
